A study of Homo sapiens with 15 samples.

Results

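The genes described here are 5 interferon-stimulated genes of a 758-gene panel: OAS3, ISG15, CXCL10, TNFSF10 and RARRES3. They were chosen by name, as rows of the deposited count table, with earlier results of these data in view, in particular their levels in cells given HSL119 and in the second HUNK shRNA line. Their levels and differences are therefore given as a description, with no p-value. The members were part of the fit over all genes, and counts of those past its threshold are given beside the share of all genes as a description only. The panel was measured in JIMT-1, an established human HER2-positive breast cancer cell line, in 15 libraries. The control group CTL had 4 libraries, and whether its cells had a vehicle, a control shRNA or puromycin is not in the labels. The group HSL119 had 3 libraries of cells given the compound of that code name, at 1 ug/ul per the labels. The groups KD1 and KD2 had 4 libraries each, from cell lines with different shRNAs against HUNK, a serine/threonine kinase. Puromycin was present for both lines, labelled 1 ug/ul, so that effects of the shRNA and of puromycin cannot be told apart against CTL. The labels do not say whether either line was 1 clone, nor how long HSL119 was given, and HUNK itself is not measured on the panel.

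Interferons are secreted when a cell senses foreign or misplaced nucleic acid, and they act on surface receptors of the same and of neighbouring cells. The receptors signal through JAK kinases to transcription factors, which bind promoter elements called the interferon-stimulated response element (ISRE) and the gamma-activated site (GAS). OAS3 makes 2′,5′-linked oligoadenylates on double-stranded RNA, which activate RNase L. ISG15 is a ubiquitin-like protein that is attached to other proteins. CXCL10 is a secreted chemokine that draws cells with the receptor CXCR3, and TNFSF10 encodes TRAIL, a ligand of death receptors. RARRES3, whose current symbol is PLAAT4, encodes a phospholipase and acyltransferase named for its response to retinoids and also induced by interferon. In breast cancer cells such genes can be active without an infection.

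The sequence just upstream of the annotated start site is shown for the members, because the ISRE is the best known element of interferon response. RefSeq promoter windows of GRCh38.p14 held 4 of the 5 members, and RARRES3 is named only. Each window is the 250 bases before the start, on the strand of the gene. Its positions are chr12:112938224-112938473 (plus strand) for OAS3, chr1:1013247-1013496 (plus strand) for ISG15, chr4:76023498-76023747 (minus strand) for CXCL10 and chr3:172523431-172523680 (minus strand) for TNFSF10. Capitals mark matches, on either strand, to the ISRE core, which is GAAA, any 2 bases and GAAA again.
OAS3: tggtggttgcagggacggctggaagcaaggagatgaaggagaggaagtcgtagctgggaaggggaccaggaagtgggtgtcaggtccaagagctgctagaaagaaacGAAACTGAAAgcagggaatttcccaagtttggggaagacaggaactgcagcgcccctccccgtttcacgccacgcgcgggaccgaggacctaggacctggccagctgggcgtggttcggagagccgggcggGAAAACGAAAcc
ISG15: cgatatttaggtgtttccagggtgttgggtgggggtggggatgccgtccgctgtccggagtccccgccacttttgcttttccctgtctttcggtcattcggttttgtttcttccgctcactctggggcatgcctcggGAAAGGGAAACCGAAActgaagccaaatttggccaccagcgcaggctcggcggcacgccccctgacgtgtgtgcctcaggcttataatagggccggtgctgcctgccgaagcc
CXCL10: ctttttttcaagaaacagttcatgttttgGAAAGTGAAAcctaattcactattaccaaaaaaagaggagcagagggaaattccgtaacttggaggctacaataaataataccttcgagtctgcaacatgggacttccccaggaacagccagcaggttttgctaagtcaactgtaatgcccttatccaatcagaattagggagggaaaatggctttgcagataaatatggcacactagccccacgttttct
TNFSF10: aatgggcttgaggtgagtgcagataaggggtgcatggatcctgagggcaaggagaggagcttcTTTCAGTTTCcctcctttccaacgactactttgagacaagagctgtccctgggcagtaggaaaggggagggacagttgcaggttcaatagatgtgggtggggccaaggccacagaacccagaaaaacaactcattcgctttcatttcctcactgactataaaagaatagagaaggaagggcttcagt
All 4 windows held the ISRE core, against 3.07% of the 27305 windows of the same length in the table and 4.70% of the 574 that belong to panel genes. OAS3 had 2 matches, at 143 to 134 and at 12 to 3 bases before the start. ISG15 had 2 that overlap, together spanning 113 to 98 bases before the start. CXCL10 had 1, at 221 to 212 bases, and TNFSF10 had 1 on the opposite strand, at 187 to 178 bases. The GAS sequence TTCNNNGAA was found in 0 of the 4 windows, against 6.78% of all windows and 5.58% of those of panel genes. The NF-kB consensus was found in OAS3 and CXCL10, at 2 places that do not overlap in CXCL10 and as 2 overlapping matches on opposite strands in OAS3, against 5.05% of all windows and 8.36% of those of panel genes. These matches describe letters in a window and not binding.

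All values below are the deposited linear counts after scaling each library by the median of its ratios to the panel, so that the typical gene is level between groups. They are compared between libraries of a gene and not between genes. The linear values were whole multiples of 1 step per library, and dividing by it gave recovered counts with totals of 1241234 to 1561639 per library. A second check of this recovery failed for HSL119 replicates 2 and 3, so their recovered counts and intervals are less certain. Intervals for single libraries are exact 95% Poisson intervals, which cover counting error only. A gene was tested if its linear value was above 20 in at least 3 libraries, which kept 622 genes and left out 136, and all 5 members were kept. The genes left out mark the low end of the panel, with medians per library of 10.3 to 11.4 in CTL, 12.6 to 16.7 in HSL119, 9.37 to 9.95 in KD1 and 9.33 to 10.0 in KD2. HSL119 replicate 2 stood apart there, with 619 panel genes above 20 against 523 to 567 in all other libraries. In KD1 and KD2, replicates 3 and 4 lay apart from 1 and 2, and libraries 1 and 2, and 3 and 4, of CTL and KD1 and libraries 1 and 2 of KD2 differed by little more than counting error. The HER2 gene ERBB2 lay at 4658 to 15604 in single libraries. Its means were 4908 in CTL, 14050 in HSL119, 6351 in KD1 and 5956 in KD2. GRB7, of the same marker list, went the other way in HSL119, KD1 and KD2, with 34794, 16480, 17198 and 14820 in that order. The summed level of 8 T and NK cell markers was 144 to 246. The labels do not say that replicates came from separate cultures, so errors measure the spread between these libraries, which may be technical.

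Differences between groups were fitted with limma over all 622 genes and are given on the log2(value + 1) scale. A gene other than the members is called risen or fallen here if it passed an adjusted p of 0.05 in limma, always in 1 direction, in 10 fits. These were 5 ways of scaling the libraries, fitted first to every library and then to the means of the closely matching pairs. By that rule 18.2% of the tested genes were lower in HSL119 than in CTL and 20.3% higher, or 38.4% in either direction. In KD1 7.07% were higher and 1.13% lower (8.2% in all), and in KD2 8.68% were higher and 2.41% lower (11.1% in all). On the deposited log2 scale, 1 of the 5, the typical gene lay 0.43 above CTL in KD1 and 0.41 in KD2. On the unscaled linear scale it lay 0.27 and 0.26 above, so the rule favours higher over lower calls in the knockdown lines. By limma on the median of ratios scale alone, 151 genes were higher and 136 lower in KD1, and 180 and 155 in KD2. SEs and adjusted p of single genes are from this fit to every library, unless stated otherwise. Closely matching libraries count there as separate, so both may be too small if these are technical repeats. With pairs averaged, the SE of the KD2 difference was 0.25 for OAS3, 0.23 for ISG15 and 0.28 for CXCL10. It was 0.24 for RARRES3 and 0.19 for TNFSF10, the last smaller than without averaging.

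OAS3 was about 9-fold lower in HSL119 than in CTL and higher in KD2. Its values were 739, 711, 650 and 692 in CTL replicates 1 to 4 and 67.5, 79.3 and 78.2 in HSL119 replicates 1 to 3. Every HSL119 library thus lay far below every CTL library. In KD1 the values were 766, 729, 1087 and 1176, and replicate 2 lay within the CTL range. In KD2 they were 1284, 1221, 1978 and 1779, all above CTL and above KD1. The log2 difference from CTL was -3.20 (SE 0.19) for HSL119, 0.40 (SE 0.18) for KD1 and 1.14 (SE 0.18) for KD2. The group means in rising order were therefore HSL119 at 74.97 ± 6.52 (SD, n = 3), CTL at 698 ± 37.4 (SD, n = 4), KD1 at 939 ± 225 (SD, n = 4) and KD2 at 1566 ± 371 (SD, n = 4), with overlap between CTL and KD1 alone.

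RARRES3 had the largest difference of the 5 in HSL119 and the smallest in both knockdown lines. It lay at 1608, 1589, 1593 and 1592 in CTL, a coefficient of variation of 0.55%, and at 152, 97.9 and 95.7 in HSL119. The difference was about 14-fold on the log2 scale of the fit, and HSL119 replicate 1 was the highest of its group. In KD1 the values were 1421, 1448, 1796 and 1824, on both sides of CTL. In KD2 they were 1736, 1804, 2340 and 2048, all above CTL. The difference from CTL was -3.81 (SE 0.16) for HSL119, 0.01 (SE 0.14) for KD1 and 0.30 (SE 0.14) for KD2. With pairs averaged the SE was 0.22 for HSL119 and 0.24 for KD1 and for KD2. The KD1 difference was below 0 with knockdown replicates 1 and 2 alone (-0.15) and 0.43 on the deposited log2 scale, so it has no settled direction.

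ISG15 differed least of the 4 genes that were lower in HSL119. Its values were 2096, 2047, 2070 and 1949 in CTL and 1136, 986 and 984 in HSL119, about 2-fold lower with no overlap. In KD1 replicates 1 and 2, at 2063 and 2003, it lay within the CTL range, and in replicates 3 and 4, at 3038 and 3018, above it. In KD2 it lay at 3631, 3540, 4962 and 5623, above every CTL and KD1 library. These made differences from CTL of -0.98 (SE 0.18) for HSL119, 0.28 (SE 0.17) for KD1 and 1.09 (SE 0.17) for KD2. On the deposited log2 scale, where the typical gene itself lies 0.41 above CTL in HSL119, the HSL119 difference was -0.63.

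CXCL10 was lowest in HSL119, within the low end of the panel, and highest in KD2, well above it. It measured 32.2, 27.3, 26.6 and 37.3 in CTL, and 7.20, 13.2 and 8.78 in HSL119. The HSL119 values correspond to 8, 17 and 10 recovered counts, and that of replicate 1 had an interval of 3.11 to 14.2. All 3 lie below the median of the genes left out in the same library, and the HSL119 difference was -1.60 (SE 0.23). Without HSL119 replicate 2 it was -1.82, and with a pseudocount of 10 it was -1.05. KD1 libraries, at 55.1, 29.8, 37.8 and 40.3, overlapped CTL, with a difference of 0.37 (SE 0.22). KD2 libraries, at 100.5, 89.3, 75.6 and 65.4, lay above both, with a difference of 1.39 (SE 0.22) from CTL, the highest of the 5 members in that line.

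TNFSF10 did not follow the other members in HSL119. It lay at 20.6, 17.1, 25.4 and 20.2 in CTL and at 31.5, 28.8 and 28.99 in HSL119, higher without overlap. The difference was 0.51 (SE 0.22). The genes left out were also higher in HSL119 than in CTL, with medians up to 16.7 against 11.4, and their part in the result was not tested. KD1 libraries were at 22.6, 24.9, 17.9 and 35.6 and overlapped both groups, with a difference from CTL of 0.24 (SE 0.21). KD2 libraries were at 51.7, 42.2, 50.4 and 31.8 and lay above every CTL library, with a difference of 1.03 (SE 0.21). Replicate 4 was the lowest of KD2 and overlapped KD1. No library held more than 54 recovered counts of TNFSF10, so that single values carry wide intervals, such as 9.55 to 28.1 for CTL replicate 2.

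**Figure D1:**
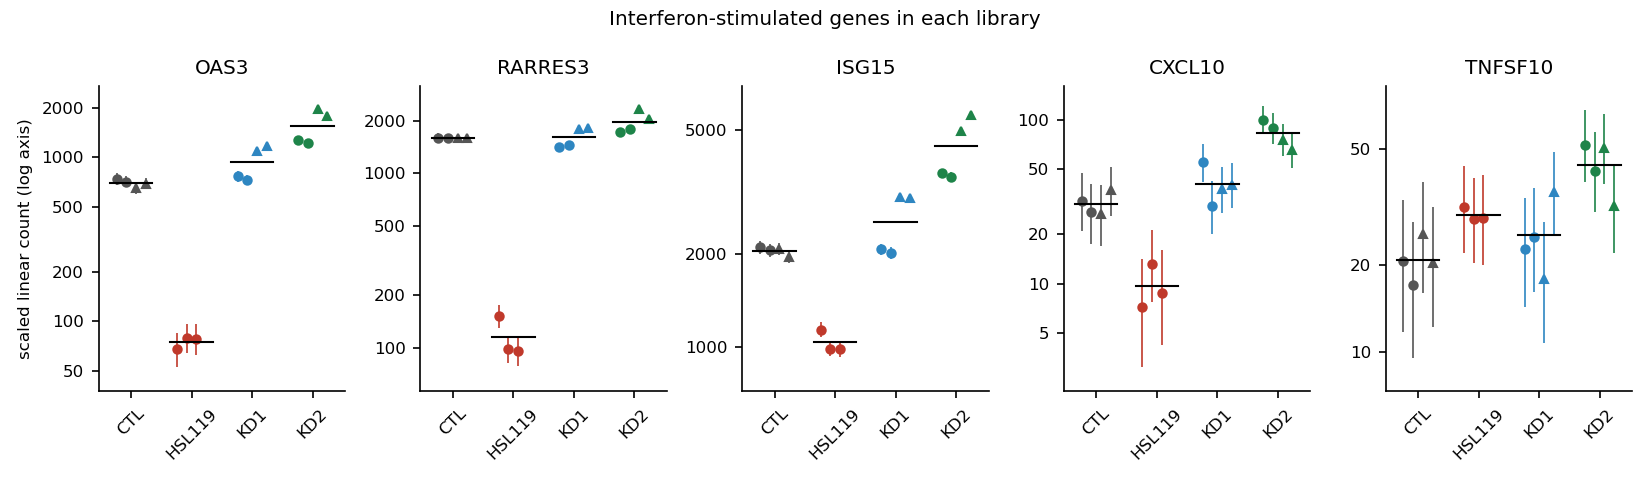
Scaled linear count of each gene in each library, on a log axis, by group. Circles are libraries 1 and 2 and all HSL119 libraries, triangles libraries 3 and 4, black lines group means and whiskers exact 95% Poisson intervals of the recovered counts. OAS3, RARRES3, ISG15 and CXCL10 lie lowest in HSL119, and TNFSF10 does not.

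Set side by side, 4 of the 5 members were lower in HSL119 than in CTL with no overlap and all 5 were higher in KD2 with no overlap. By the rule on 5 scalings 4 were lower in HSL119, where 18.2% of all tested genes were lower and 38.4% passed either way. In KD1 0 passed, against 8.2% of all tested genes, and in KD2 4 were higher, where 8.68% were higher and 11.1% passed either way. ISG15 no longer passed in HSL119 without any 1 HSL119 library, or without CTL replicate 1 or 3, KD1 replicate 1 or 4, or KD2 replicate 1 or 3. OAS3 no longer passed in KD2 without any 1 HSL119 library, nor ISG15 without HSL119 replicate 2 or 3. The members were chosen with these comparisons known and nothing is read from those counts. Of all tested genes, 37.5% were lower in HSL119 than in CTL with no overlap, and 28.1% were higher in KD2. The comparisons share the CTL libraries. The median difference of the 5 from CTL was -1.60 in HSL119, 0.28 in KD1 and 1.09 in KD2, beside 0.05, 0.01 and -0.01 over all tested genes.

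**Figure D2:**
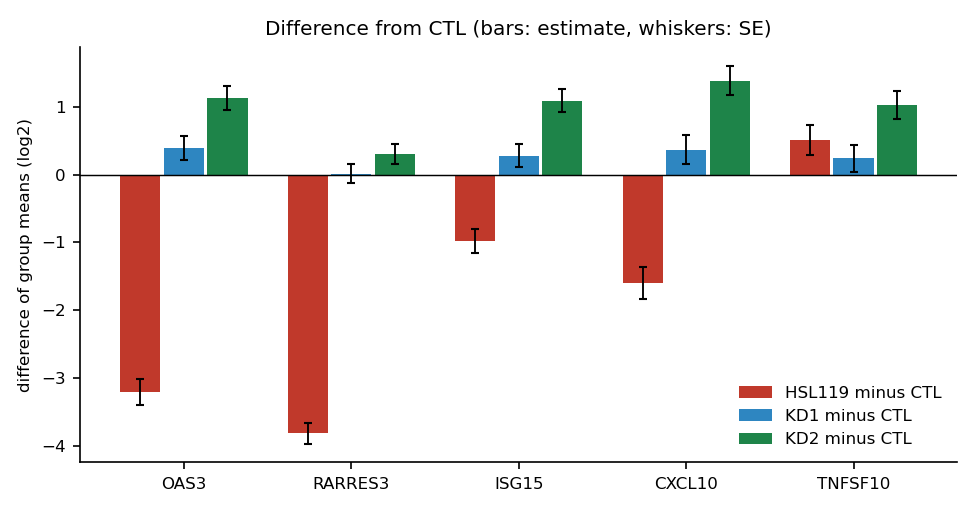
Difference of each group mean from CTL on the log2(value + 1) scale for the 5 genes, with whiskers of 1 SE from the shared fit. HSL119 bars run from -3.81 for RARRES3 to 0.51 for TNFSF10, and KD2 bars from 0.30 for RARRES3 to 1.39 for CXCL10.

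Among the 622 tested genes ordered by their difference in HSL119, RARRES3 had the 10th lowest and OAS3 the 18th lowest value. CXCL10 was 67th and ISG15 113th from the lowest, and TNFSF10 was 195th from the highest. In KD2 the order among the members differed, with CXCL10 28th, OAS3 47th, ISG15 53rd and TNFSF10 60th from the highest, and RARRES3 189th. In KD1 all 5 lay in the bulk of the panel, between 140th (OAS3) and 308th (RARRES3) from the highest. The distance of OAS3 and RARRES3 from the rest in HSL119 was thus not matched by a like distance in either knockdown line.

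**Figure D3:**
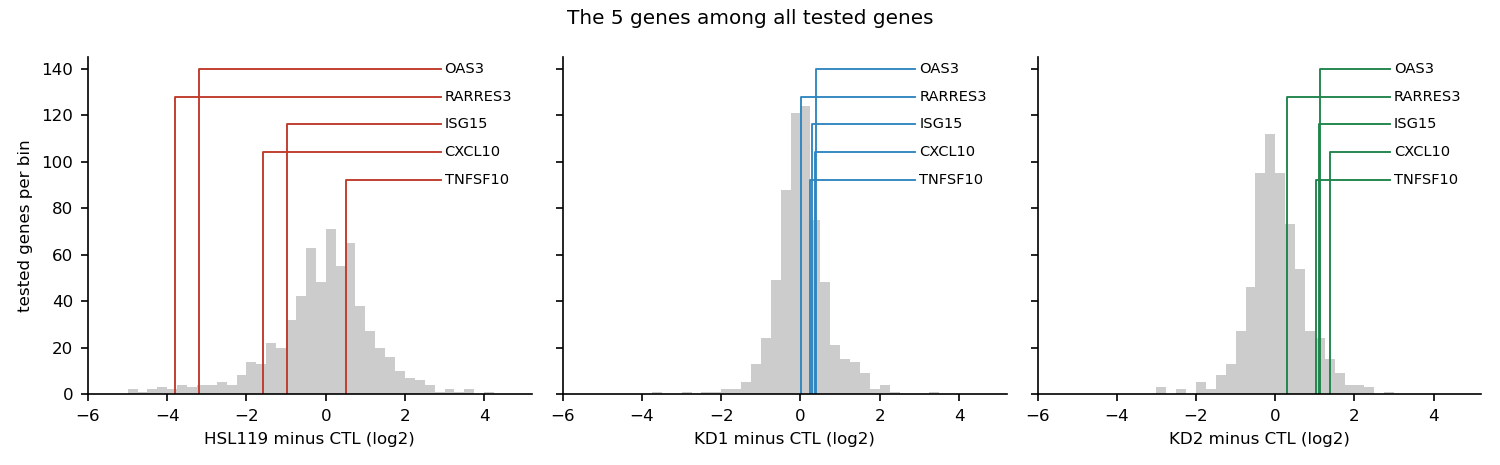
Histogram of the log2 difference from CTL over all 622 tested genes in HSL119, KD1 and KD2 (grey, genes per bin), with the 5 genes marked by lines. RARRES3 and OAS3 lie in the lower tail in HSL119, and in KD1 all 5 lie near the centre.

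The knockdown libraries differed among themselves in a way that split the members. OAS3 was 1.51-fold higher in replicates 3 and 4 than in 1 and 2 of KD1 and 1.497-fold in KD2, and ISG15 was 1.49-fold and 1.47-fold higher. RARRES3 was higher by 1.26-fold and 1.24-fold in the same libraries. CXCL10 and TNFSF10 did not share this, with 0.96-fold and 1.07-fold in KD1 and 0.75-fold and 0.86-fold in KD2. In CTL the same split gave 0.93-fold for OAS3, 0.97-fold for ISG15 and 1.00-fold for RARRES3. Of the 622 genes, 69 in KD1 and 82 in KD2 were more than 1.5-fold higher in replicates 3 and 4, and OAS3 passed that size in KD1. The labels do not say what separates these replicates.

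The distance between the knockdown lines was alike in both sets of replicates for OAS3, ISG15 and RARRES3. KD2 exceeded KD1 in OAS3 by 1.68-fold in replicates 1 and 2 and by 1.66-fold in 3 and 4. For ISG15 these ratios were 1.76-fold and 1.74-fold, and for RARRES3 1.23-fold and 1.21-fold. CXCL10 gave 2.30-fold and 1.78-fold, and TNFSF10 1.93-fold and 1.56-fold. Against CTL, by contrast, OAS3 in KD1 was 1.03-fold in replicates 1 and 2 and 1.68-fold in 3 and 4, and ISG15 was 0.98-fold and 1.51-fold. In KD2, OAS3 was 1.73-fold and 2.79-fold CTL and ISG15 1.73-fold and 2.63-fold.

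**Figure D4:**
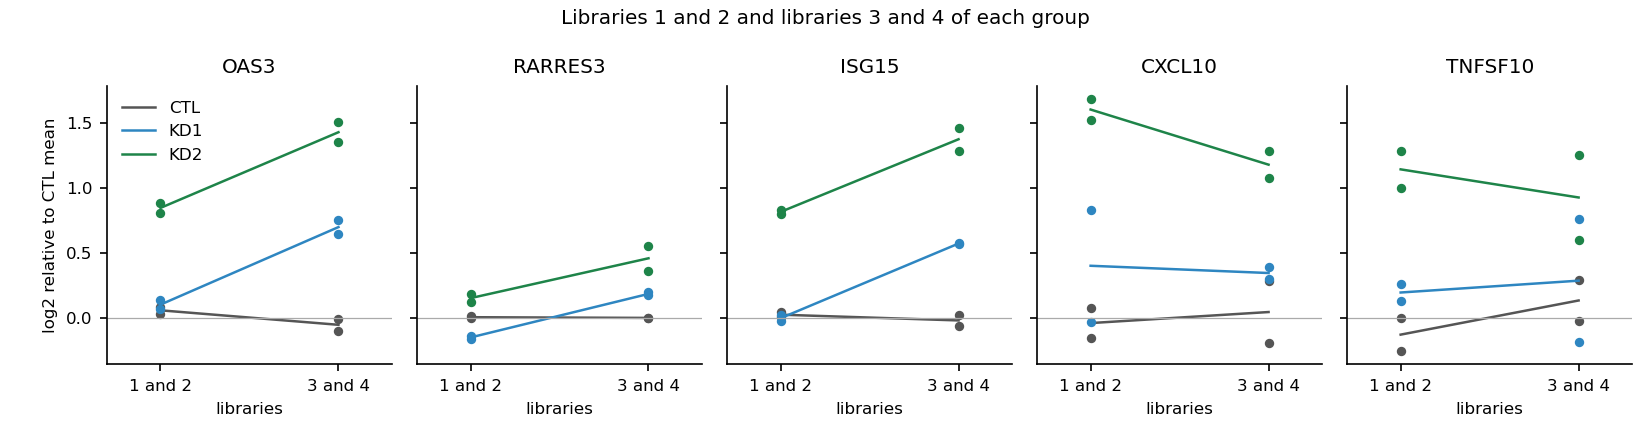
Log2 scaled count relative to the CTL mean for CTL, KD1 and KD2, with libraries 1 and 2 on the left and 3 and 4 on the right of each panel. Points are libraries and lines join the means. In OAS3, ISG15 and RARRES3 the KD1 and KD2 lines run nearly parallel and upward while CTL stays level.

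Same-numbered libraries of KD1 and KD2 deviated together, with correlations of 0.61 to 0.78 across genes, so this comparison was also fitted on the KD1 and KD2 libraries alone, with the replicate number as a block. The log2 difference of KD1 from KD2 was then -0.74 (SE 0.06) for OAS3, -0.81 (SE 0.04) for ISG15, -1.02 (SE 0.16) for CXCL10, -0.79 (SE 0.26) for TNFSF10 and -0.29 (SE 0.05) for RARRES3. With the block, 10.8% of the tested genes were lower in KD1 than in KD2 and 13% higher, 23.8% in all, and 4 of the members, all but TNFSF10, were among the lower. The members were chosen with KD2 in view and nothing is read from that count. Without it, by the rule on 5 scalings, 0.161% were lower, which was VIM alone, and 0 of the members passed. By limma on the median of ratios scale, 49 genes passed in the fit of all 4 groups without the block and 60 with it. On the KD1 and KD2 libraries alone, 10 passed without the block and 148 with it. Near-duplicate libraries count as separate in the blocked fit, which makes its p-values too small if they are technical repeats.

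The other interferon genes of the panel were taken from lists of the pathway. No interferon, interferon receptor or nucleic acid sensor of those lists is on it. Of 6 signal transduction genes, SOCS1, a feedback inhibitor of JAK kinases, fell in HSL119, with a log2 difference of -1.48 (SE 0.38), an adjusted p in limma of 0.00344 and all 3 libraries below the CTL mean. It measured 1211 in CTL, 433 in HSL119, 404 in KD1 and 468 in KD2. With pairs averaged its limma adjusted p in HSL119 was 0.019. Without any single HSL119 library SOCS1 no longer passed on all scalings. None of the 6 rose in HSL119, and 0 rose or fell in KD1 or KD2 by the rule on 5 scalings, while 4 in KD1 and 5 in KD2 had a limma adjusted p under 0.05 on the median of ratios scale alone.

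Of 4 other interferon-stimulated genes that were tested, 2 fell and 0 rose in HSL119. PDCD1LG2, which encodes the PD-1 ligand PD-L2, fell with a log2 difference of -1.79 (SE 0.12, limma adjusted p = 7.3e-09), from 166 ± 15.5 (SD, n = 4) to 47.4 ± 6.91 (SD, n = 3). The chemokine CCL5 fell with a log2 difference of -1.71 (SE 0.25, limma adjusted p = 2.5e-05), from 98.3 ± 8.79 (SD, n = 4) to 29.7 ± 5.92 (SD, n = 3). PDCD1LG2 rose in both knockdown lines, by a log2 difference of 1.34 (SE 0.11) in KD1 and 1.105 (SE 0.11) in KD2. The limma adjusted p were 7.6e-07 and 2.7e-06, with all libraries above the CTL mean. With pairs averaged the limma adjusted p of PDCD1LG2 were 0.0051 in KD1, 0.0066 in KD2 and 4.9e-05 in HSL119. For CCL5 in HSL119 it was 0.0014. CCL5 measured 124 ± 29.3 (SD, n = 4) in KD1 and 211 ± 74.1 (SD, n = 4) in KD2, and did not pass on all scalings in either line. CD274, the PD-1 ligand PD-L1, lay at 474 in CTL, 414 in HSL119, 516 in KD1 and 504 in KD2, and IDO1 lay near the low end at 21.5 to 32.9. Neither passed in any group, and the list median was -0.95 in HSL119, 0.23 in KD1 and 0.82 in KD2.

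Of 14 tested genes of antigen presentation, many of which interferon induces, 5 fell and 1 rose in HSL119. HLA-B fell with a log2 difference of -2.39 (SE 0.18, limma adjusted p = 2.7e-08, or 4.3e-05 with pairs averaged). The differences were -1.21 (SE 0.21) for HLA-E and -0.87 (SE 0.11) for HLA-C, both class I genes like HLA-B, and -0.69 (SE 0.07) for PSMB9, an immunoproteasome subunit. HLA-DMA, which loads class II molecules, rose by 0.78 (SE 0.13). In KD1 HLA-E fell with a difference of -1.21 (SE 0.20, limma adjusted p = 0.000246, or 0.024 with pairs averaged) and 0 rose. In KD2 0 passed on all scalings, with 25137 ± 271 (SD, n = 4) for HLA-B in CTL against 15125 ± 3727 (SD, n = 4) in KD2. The list median was -0.50 in HSL119, -0.38 in KD1 and -0.24 in KD2. HLA-E in KD1 no longer passed without any 1 HSL119 library. In HSL119 the same held for HLA-C without replicate 3, for PSMB9 without replicate 2 or 3 and for HLA-DMA without replicate 2.

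NF-kB is a transcription factor of inflammatory signalling. Of 5 tested genes of its list, 3 fell in HSL119 and 0 rose. The log2 differences were -2.62 (SE 0.37) for NFKBIZ, -2.07 (SE 0.33) for IL6 and -1.46 (SE 0.16) for TNF, with limma adjusted p of 1.9e-05, 6.2e-05 and 1.5e-06. With pairs averaged the limma adjusted p were 0.00089 for NFKBIZ, 0.0018 for IL6 and 0.00051 for TNF. None of the 5 passed in KD1 or KD2. IL6, an inflammatory cytokine, lay at 429 ± 143 (SD, n = 4) in CTL, 493 ± 22.6 (SD, n = 4) in KD1 and 980 ± 494 (SD, n = 4) in KD2. Of 4 death signalling genes, BCL2L1, an inhibitor of apoptosis, fell in HSL119 with a difference of -0.69 (SE 0.08, limma adjusted p = 1.7e-06, or 0.00078 with pairs averaged). It no longer passed without any 1 HSL119 library or without KD2 replicate 3. Of 5 chemokines, CCL5 alone fell in HSL119. No TRAIL receptor of the list, nor CXCR3, is measured on the panel, and the 1 retinoid gene there, ALDH1A1, was not tested. In the knockdown lines 0 genes of these 3 lists rose or fell.

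**Figure D5:**
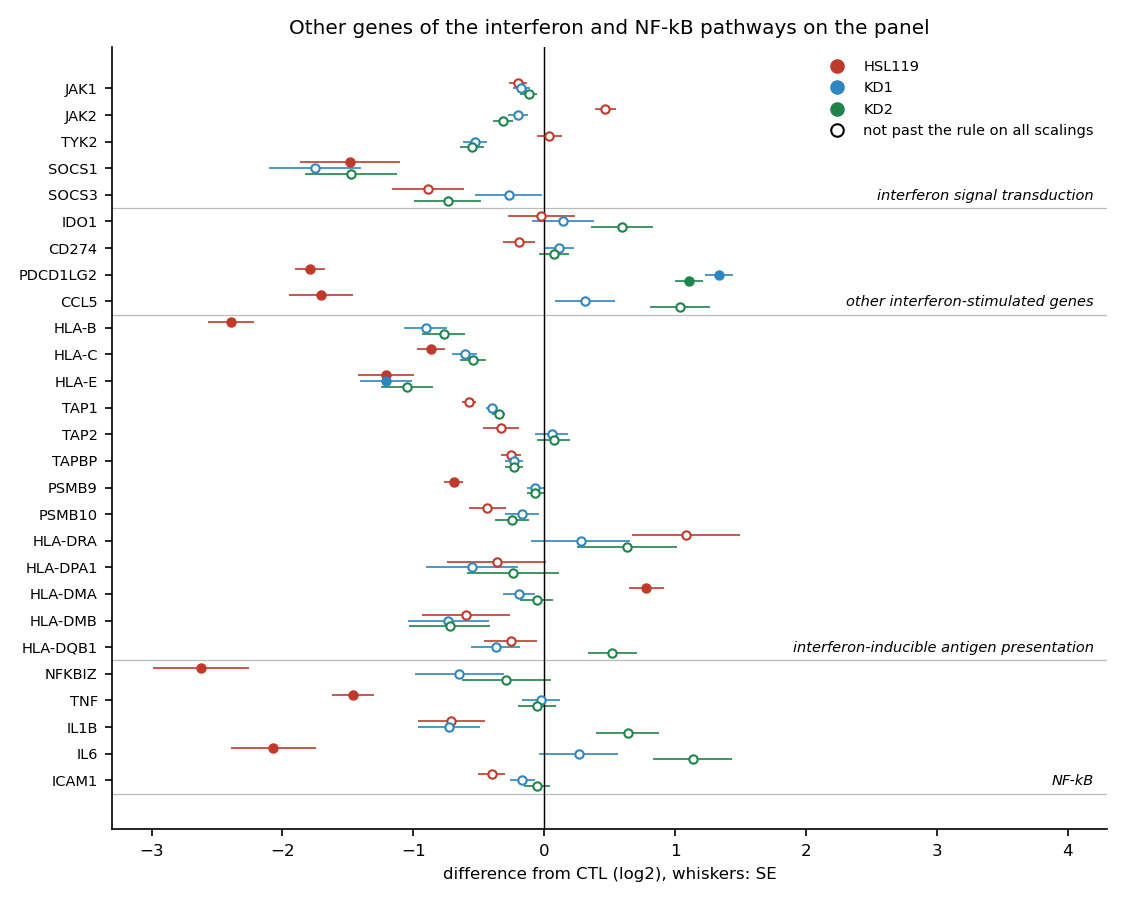
Log2 difference from CTL with 1 SE for tested genes of the interferon, antigen presentation and NF-kB lists in HSL119, KD1 and KD2. Filled points passed the rule on all 5 scalings. PDCD1LG2 alone has filled points on both sides of 0, at -1.79 in HSL119 and 1.34 and 1.105 in the knockdown lines.

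Interferon-stimulated genes are also active in other cell types, and their markers were looked at beside the members. The summed level of 4 myeloid markers was 457 in CTL, 134 in HSL119, 285 in KD1 and 340 in KD2, of which CD68, a lysosomal gene not confined to macrophages, made 426, 94.8, 261 and 312. The other 3 myeloid markers lay at 0.94 to 25.9. The 6 endothelial markers summed to 91.1 in CTL, 123 in HSL119, 174 in KD1 and 192 in KD2, through PECAM1. In HSL119 CD68 thus moved with OAS3 and RARRES3, and its part in the result was not tested.

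The tested genes most alike to each member over the 15 libraries were found by the root mean square difference of log2 values, each centred on its own mean. For RARRES3 they were ITGB6 (0.20), SLPI (0.37) and OAS3 (0.38), beside a median of 1.65 over all tested genes. For OAS3 they were SNAI2 (0.34), WT1 (0.35) and LINC02381 (0.37), and RARRES3 was the next nearest. ISG15 was nearest to SFRP1 (0.17), BAMBI (0.18) and PLCB1 (0.22). CXCL10 was nearest to MME (0.40), COL27A1 (0.41) and CCL5 (0.45), and TNFSF10 to EGF (0.33), CCL4 (0.33) and JAM2 (0.34), beside medians of 1.13 and 0.64. Within the members, OAS3 and RARRES3 were the closest pair and TNFSF10 and RARRES3 the farthest, at 1.65. Among the genes nearest to OAS3, ISG15 ranked 48th, CXCL10 29th and TNFSF10 270th.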

How the data were processed

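RNA of 15 JIMT-1 libraries was measured on a fixed panel. Its deposited values come, per the file headers, as 1 log2 block and 1 linear block of normalized counts, and the authors' normalization is not given in the sources used here. The deposited log2 values equal those of the series' value table. Log2 of the linear signal minus the log2 value is fixed within each library, with a mean of 0.16 in CTL, -0.17 in HSL119 and nil in the knockdowns, so the scaling was varied. Each linear signal, as the authors deposited it, was a whole multiple of 1 step per library within 0.01 (100% of values), and the whole counts so recovered gave totals and counting intervals. A second check of this recovery failed for HSL119 replicates 2 and 3, so no count test was run on HSL119. As an alternative, edgeR 4.0.16 on the recovered counts called 278 genes in KD1, 324 in KD2 and 57 between the lines.

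Linear values were scaled by median of ratios and tested on log2(value + 1) in R 4.3.3 with limma 3.58.1 (eBayes with trend), with all 15 libraries in 1 fit of 4 groups, two-sided p and Benjamini-Hochberg adjustment over 622 genes. The filter was a linear value above 20 in at least 3 libraries. The 5 scalings were median of ratios, deposited log2, unscaled linear, median centring and quantile normalization. The script was tested on simulated data. The lists held interferons and receptors, signal transduction, nucleic acid sensing, other interferon-stimulated genes, antigen presentation, death signalling, chemokines, retinoid response and NF-kB. Up to 4 genes per list and comparison that rose or fell were named, and the 3 most alike genes of each member. CD274, IDO1, IL6 in the knockdowns, PSMB9, HLA-DMA, HLA-B in KD2, SOCS1 in the knockdowns, CCL5 in the knockdowns, CD68, PECAM1, ERBB2, GRB7 and VIM were named after their values were seen. Some list genes are counted but not reported here by name. Members and lists were chosen with earlier results of these data known. Same-numbered KD1 and KD2 libraries had correlations of deviations from group means of 0.61 to 0.78. Those of CTL with KD1 were -0.22 to -0.12, and the other pairs of groups lay between -0.17 and 0.13. Replicates 3 and 4 lay apart from 1 and 2 in both lines, so these correlations do not show pairing by single replicate number. Gene symbols were matched to RefSeq names, of which 749 of 758 were current.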

Additional observations from a re-analysis of the deposited data

Results flagged for a closer look

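Between the 2 knockdown lines, the effect against CTL differed in 10 reported genes of the lists by the fit with a replicate block on the KD1 and KD2 libraries. This flagged them for a closer look, and no cause was tested. That fit called 23.8% of all 622 tested genes, and nothing is read from the count of 10. Near-duplicate libraries count as separate in it, which makes its p-values too small if they are technical repeats. The log2 difference of KD1 from KD2 was 0.47 for SOCS3 and -0.73 for CCL5. It was -0.14 for HLA-B, -0.16 for HLA-E and -0.89 for HLA-DQB1, the last near the low end of the panel. It was -0.21 for BAX, 0.20 for BCL2L1 and 0.14 for BIRC5, and -1.36 for IL1B and -0.87 for IL6. None of the 10 passed on all 5 scalings without the block. With pairs averaged and no block, their limma adjusted p ran from 0.22 for IL1B to 0.997 for HLA-B and HLA-E. The members were in the same fit and are left out here, since they were chosen with their KD2 levels in view. No member had a library that stood far from the others of its group in CTL, KD1 or KD2, which were the groups of 4 that could be examined.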

How the results depend on the processing

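Of the 5 members' differences in 4 comparisons, 546 values under alternatives were computed and 511 lay within 1 SD of the reported value, while 35 moved further. The deposited log2 scale accounted for 14 of these, since it raises every treated group against CTL. Under all alternatives OAS3 lay between -3.46 and -2.82 in HSL119 and between 0.84 and 1.56 in KD2, ISG15 between -1.24 and -0.63 and between 0.81 and 1.51, and TNFSF10 between 0.25 and 0.88 in HSL119. RARRES3 in KD1 ran from -0.15 to 0.43 and ISG15 in KD1 from -0.0049 to 0.70, so these have no settled direction.

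By limma, 422 genes passed in HSL119, 287 in KD1, 335 in KD2 and 49 between the knockdown lines. The rule on all 5 scalings, added after seeing the data, gave 239, 51, 69 and 1. With pairs of libraries averaged, libraries 3 and 4 of KD2 among them, KD1 gave 124, KD2 142 and the comparison of the lines 1. That comparison gave 10 genes with only its own libraries, 96 with replicates 1 and 2 alone, 115 with 3 and 4 alone, 60 with a replicate block in the fit of all groups and 148 with the replicate block on the 2 lines alone. Leaving out 1 library gave 382 to 437 genes in HSL119, 231 to 298 in KD1, 283 to 340 in KD2 and 26 to 58 between the lines. On all 5 scalings, KD1 calls fell from 51 to 15 without HSL119 replicate 2 and to 23 without replicate 3, KD2 calls from 69 to 46 and to 45, and the members higher in KD2 from 4 to 2. Without HSL119 replicate 1 the members higher in KD2 were 3. For the knockdown comparisons such an omission acts through the shared spread. With the replicate block in the fit of all groups HSL119 gave 438, KD1 319 and KD2 357, and that block moved no count by over 1.5 times. Counting error limits CXCL10 and TNFSF10, and the low end of HSL119 replicate 2 limits both in HSL119.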
